A study of Rattus norvegicus with 6 samples.

Results

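The genes described here are transcription factors that switch on insulin transcription and hold the beta cell program, most of them homeobox genes, in INS-1 cells carrying 1 of 2 menin mutants. The members were the table rows whose gene name matched Mafa, Pdx1, Neurod1, Isl1, Pax6, Nkx2-2, Nkx6-1, Mnx1 or Insm1. Of these 9 names, 8 had a row among the 35362 in the table. The cells came from a rat insulinoma, make and release insulin, and stand in for the pancreatic beta cell, here at passages 75 to 80. Both groups were transduced with a pMX-puro retrovirus for Flag-tagged menin, with alanine in place of serine in the S487A group and aspartate in the S487D group, 3 libraries each. Alanine cannot take a phosphate, and aspartate carries the negative charge that a phosphorylated serine would have. The series asks how GLP-1, a gut hormone that acts on beta cells, works on menin through its phosphorylation. The labels do not say whether each line was a clone or a pool, nor whether libraries came from separate cultures, so the p-values rest on a spread between libraries that may be technical. Cells with wild-type menin were not analysed here, so every direction is S487D relative to S487A.

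Men1, which encodes menin, stood at 71.2, 76.7 and 75.0 RPKM (assigned reads scaled to gene length and to the library's total) in the S487A libraries and at 113, 103 and 119 in the S487D libraries. Both transgene and rat gene may contribute to these values, and the reads do not show which mutant a library holds. Libraries held 9444801 to 10867549 assigned reads. Ribosomal RNA took 0.929 to 2.49% of reads in S487A and 2.15 to 4.50% in S487D, highest in S487D replicate 2. The beta cell genes Ins1, Ins2, Iapp, Slc2a2 and Pcsk2 were all above 100 RPKM in both groups. Of 24 markers of exocrine, duct, mesenchymal, endothelial and immune cells, 10 were at 0 in every library, among them Cpa1, Prss1, Cdh5 and Ptprc, and 2 were high enough to test. The keratin gene Krt7, a ductal marker, fell from 217 ± 9.5 to 82.7 ± 2.0 RPKM and made up nearly all of the markers' summed level, which was 212 to 231 RPKM in S487A and 83.7 to 87.3 in S487D. The other tested marker, Vim, stood at 1.41 ± 0.26 RPKM in S487A and 0.495 ± 0.262 in S487D. It passed the filter of 1 RPKM in 3 libraries only through S487A, so its fall is not read as a result. Whether these 2 genes have a part in the results below was not tested.

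In beta cells, insulin transcription rests on a short promoter that several classes of factor bind together. Pdx1, Nkx6-1, Nkx2-2, Isl1, Pax6 and Mnx1 carry homeodomains, many of which recognise an ATTA core, the A boxes of the insulin genes. Neurod1 is a basic helix-loop-helix protein that pairs with an E protein on the E box CATCTG, and Mafa is a leucine zipper protein that binds the C1 element. Insm1 is a zinc finger factor of endocrine cells.

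The proximal promoters of 3 genes regulated by these factors are shown with matches to 3 short motifs, not all of which stand in each promoter. They are the 250 bases before the RefSeq start on GRCr8, 5′ to 3′, with capitals for matches to 3 motifs on either strand. The homeodomain core is ATTA. The E box searched is CATCTG. A half-site of the Maf recognition element is TGCTGA.
Ins1, chr1:261185869-261186118, plus strand: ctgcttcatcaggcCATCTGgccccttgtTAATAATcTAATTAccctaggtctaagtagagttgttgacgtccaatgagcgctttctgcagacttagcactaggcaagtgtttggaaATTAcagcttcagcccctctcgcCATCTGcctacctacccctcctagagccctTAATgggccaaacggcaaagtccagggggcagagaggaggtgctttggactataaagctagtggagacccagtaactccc
Ins2, chr1:207273806-207274055, minus strand: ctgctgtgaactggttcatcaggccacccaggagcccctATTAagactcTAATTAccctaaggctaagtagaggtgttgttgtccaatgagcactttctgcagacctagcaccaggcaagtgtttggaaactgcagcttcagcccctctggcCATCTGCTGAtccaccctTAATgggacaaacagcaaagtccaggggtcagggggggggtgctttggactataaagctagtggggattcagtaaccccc
Iapp, chr4:176967847-176968096, plus strand: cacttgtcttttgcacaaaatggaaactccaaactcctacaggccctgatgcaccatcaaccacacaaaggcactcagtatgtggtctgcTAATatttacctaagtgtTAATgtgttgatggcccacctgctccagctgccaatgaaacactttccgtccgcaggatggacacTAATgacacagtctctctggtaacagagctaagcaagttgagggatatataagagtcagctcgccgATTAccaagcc
Ins1 held 6 copies of the homeodomain core, some of them overlapping, the nearest at 80 bases before the start, and 2 E boxes, at 236 and 110 bases. Ins2 held 4 cores and an E box that overlaps a Maf half-site, starting at 98 and 94 bases. Iapp held 4 cores and neither other motif, and Ins1 held no Maf half-site. Slc2a2, searched in the same way but not shown, held 1 core and neither other motif. Of 33469 rat promoters of this length, 57.0% had at least 1 core, 10.8% at least 4 and 3.34% at least 6. The E box stood in 14.0%, with at least 2 copies in 1.2%, and the Maf half-site in 15.1%. Matches describe the letters only and are not evidence of binding. The C1 element was not searched for as such, so a Maf half-site, or its absence, does not show where that element lies. Of the members, 7 had a promoter in the same table. Mnx1 had 2 cores, Isl1, Nkx2-2 and Nkx6-1 had 1 each, Pdx1 and Neurod1 had 1 Maf half-site each, and Pax6 had none of these motifs. Mafa and Insm1 had no entry.

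All 8 members differed between the mutants, in both directions. Mafa rose 3.70-fold, Nkx2-2 rose 1.49-fold and Mnx1 and Pdx1 rose by little, while Nkx6-1 fell 2.05-fold, Isl1 fell 1.40-fold and Pax6 and Neurod1 fell by less. By limma on log2(RPKM + 1), at a Benjamini-Hochberg adjusted p under 0.05 across the 12527 tested genes, 4 members were higher and 4 lower. Among all tested genes 44.4% were called, 20.1% higher and 24.3% lower. A call was thus common in these libraries, and the size of each change says more than the count. The median size of a log2 change was 0.38 over the members and 0.17 over all tested genes. The groups did not overlap in any of the 8 members, which was also the case in 54.6% of all tested genes. In bulk RNA, fewer cells with a transcript and less of it per cell cannot be told apart. Folds come from log2(RPKM + 1), so changes of low genes are understated, and an exact permutation test of 3 libraries against 3 cannot go below 0.1, the value it gave for each member.

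**Figure D1:**
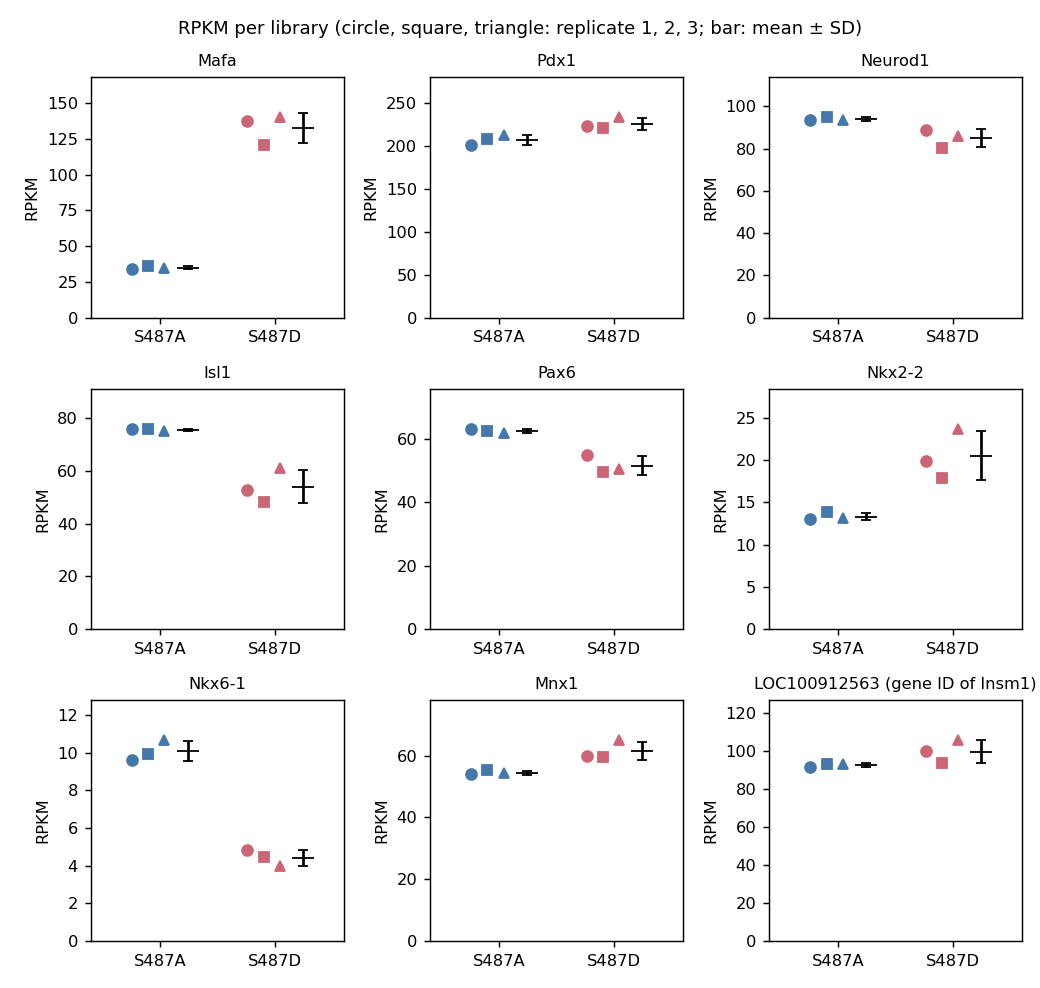
RPKM of each member, and of the row that carries the gene ID of Insm1, in every library (vertical axes, each from 0), by group (horizontal axes), with mean ± SD beside the points. Mafa stands at 34.02 to 36.05 RPKM in S487A and 120.4 to 140.2 in S487D, and Nkx6-1 at 9.62 to 10.7 and 3.98 to 4.84.

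Mafa, the activator that marks mature beta cells and drives glucose-responsive insulin transcription, lies on chromosome 7 from 116779368 to 116781815 (rn6, minus strand). Its RPKM was 34.02, 36.05 and 35.03 in S487A and at 137, 120.4 and 140.2 in S487D. Every S487D library was far above every S487A library, with replicate 2 the lowest of its group. This log2 change of 1.89 (SE 0.059, limma adjusted p = 2.18e-08) ranked 11th among rises of all 12527 tested genes. Between 836 and 959 reads supported each S487A value, and between 2808 and 3450 each S487D value. The log2 change stayed between 1.85 and 1.96 over 16 alternative settings.

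Pdx1, needed to form the pancreas and to keep insulin expression in adult beta cells, lies on chromosome 12 from 9496044 to 9501211 (minus strand). It was the member with the highest level, at 201, 208 and 213 RPKM under S487A and 223, 221 and 234 under S487D. The groups stood close together without overlap, with a log2 change of 0.12 (SE 0.040, adjusted p = 0.0299). The call was lost in 8 of the 16 alternatives. In 4 of them a library was left out: replicate 1 of S487A (adjusted p = 0.0800) or of S487D (0.0658), S487A replicate 2 (0.0671), or S487D replicate 3 (0.109). The adjusted p ranged from 0.00489 to 0.865 over all 16. With the replicate number as a block it was 0.0577. After quantile normalization the log2 change was 0.010, so the rise of Pdx1 depends on the scaling.

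Neurod1, the helix-loop-helix activator of the E box, lies on chromosome 3 from 66414314 to 66417617 (minus strand). It was read at 93.7, 94.8 and 93.3 RPKM in S487A and at 88.9, 80.4 and 85.9 in S487D. All S487D values lay below the S487A values, by a small margin in replicate 1. Its log2 change was -0.14 (SE 0.044, adjusted p = 0.0254). The call was lost without S487A replicate 1 (0.0503), S487A replicate 2 (0.0687) or S487D replicate 2 (0.0861), after median centring (0.119) and without the intensity trend (0.0646), within a range of 0.00981 to 0.119. A row for an uncharacterised transcript overlaps Neurod1 on the same strand and held 0.185 to 0.579 RPKM.

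Isl1, a LIM homeodomain protein that acts with Neurod1 and the adaptor Ldb1 on beta cell genes, lies on chromosome 2 from 48488911 to 48501217 (minus strand). It was read at 75.7, 75.9 and 74.9 RPKM in S487A and at 52.8, 48.3 and 60.9 in S487D. The S487A libraries were nearly equal and the S487D libraries were spread out below them, a log2 change of -0.48 (SE 0.072, adjusted p = 5.43e-04). Pax6, a paired-box and homeodomain factor that keeps hormone expression in islet cells, lies on chromosome 3 from 95699478 to 95728556 (plus strand). It was read at 63.1, 62.5 and 61.9 RPKM in S487A and at 54.9, 49.4 and 50.3 in S487D, with no overlap and a log2 change of -0.27 (SE 0.047, adjusted p = 0.00122).

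The NK homeobox genes went opposite ways. Nkx2-2, which acts mainly as a repressor of other islet cell fates, lies on chromosome 3 from 141408798 to 141411170 (minus strand). It was read at 13.02, 13.87 and 13.12 RPKM in S487A and at 19.95, 17.94 and 23.71 in S487D. The S487D libraries all lay higher and were further apart, with 238 to 312 reads each against 182 to 210, for a log2 change of 0.58 (SE 0.087, adjusted p = 5.85e-04). Nkx6-1, a homeodomain factor that keeps beta cells from taking on an alpha cell program, lies on chromosome 14 from 9555264 to 9562197 (plus strand). It was the lowest member, at 9.62, 9.94 and 10.7 RPKM under S487A and 4.84, 4.43 and 3.98 under S487D. The log2 change was -1.03 (SE 0.076, adjusted p = 5.67e-06), with 311 to 353 reads per S487A library and 121 to 160 per S487D library. Within each library, the ratio of Nkx2-2 to Nkx6-1, on the RPKM scale, was 1.35, 1.40 and 1.23 in S487A and 4.12, 4.05 and 5.96 in S487D.

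Mnx1, a homeodomain repressor of non-beta fates, lies on chromosome 4 from 2376350 to 2381308 (minus strand). It was read at 53.9, 55.2 and 54.3 RPKM in S487A and at 59.8, 59.7 and 64.9 in S487D. The log2 change was 0.17 (SE 0.044, adjusted p = 0.0123), and the call held in each of 16 alternatives. No row is named Insm1. A row named LOC100912563, on chromosome 3 from 140427978 to 140430467 (plus strand), carries the number that RefSeq gives as the gene ID of Insm1, and is described here outside the member count. Its RPKM was 91.3, 92.9 and 93.1 with S487A and 99.7, 93.4 and 105 with S487D. These groups nearly touched, with a log2 change of 0.10 (SE 0.047, adjusted p = 0.106). The adjusted p of LOC100912563 passed the threshold after median centring (0.0157), without the 10 most read genes in the scaling (0.0359) and without S487D replicate 2 (0.0313), within a range of 0.0157 to 0.334.

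The direction of each member was the same in all 16 alternatives, and 6 of the 8 kept their call in every one. The 2 that did not were Pdx1 and Neurod1.

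**Figure D2:**
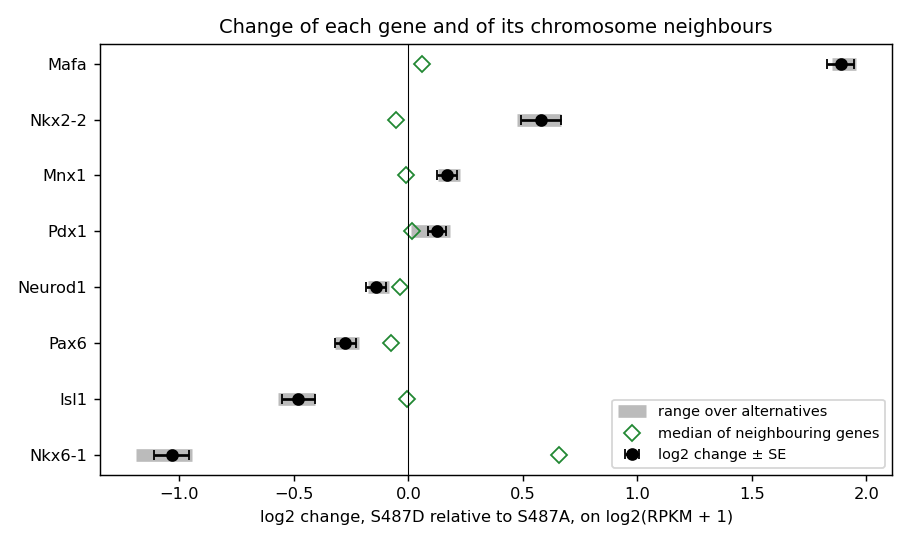
Log2 change of each member (horizontal axis, S487D relative to S487A) with its SE, the range over 16 alternative settings (grey bar) and the median log2 change of up to 40 neighbouring tested genes (open diamond). Mafa lies at 1.89 beside a neighbour median of 0.06, and Nkx6-1 at -1.03 beside a neighbour median of 0.66.

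The order of the members by level per length differed between the mutants. In S487A the order was Pdx1, Neurod1, Isl1, Pax6, Mnx1, Mafa, Nkx2-2 and Nkx6-1, and no neighbours in this order overlapped over the 3 libraries. In S487D Mafa stood second, behind Pdx1 and ahead of Neurod1. Mnx1 and Pax6 changed places, with Mnx1 below Pax6 in S487A (53.9 to 55.2 against 61.9 to 63.1 RPKM) and above it in S487D (59.7 to 64.9 against 49.4 to 54.9). Isl1 overlapped both in S487D, so its place between them is not resolved. The summed level of the 8 members was 552 ± 6.7 RPKM in S487A and 636 ± 31.4 in S487D (n = 3 each). Without Mafa the sum was 517 ± 5.8 and 503 ± 21, which overlapped between groups. Mafa made up 6.34 ± 0.12% of the sum in S487A and 20.9 ± 0.73% in S487D. Isl1 went from 13.7 ± 0.21% to 8.48 ± 0.61%, Pax6 from 11.3 ± 0.24% to 8.12 ± 0.49% and Nkx6-1 from 1.82 ± 0.08% to 0.697 ± 0.085%. Mnx1 held 9.87 ± 0.09% and 9.67 ± 0.32%, with overlap. Ratios within a library do not depend on its total. Mafa stood at 0.169, 0.173 and 0.165 of the Pdx1 level in S487A and at 0.615, 0.545 and 0.600 in S487D.

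**Figure D3:**
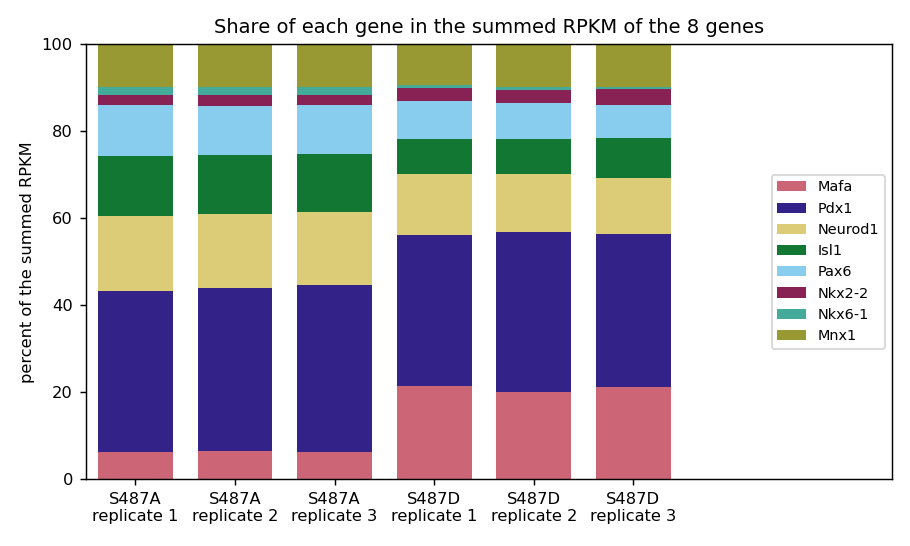
Share of each member in the summed RPKM of the 8 members (vertical axis, percent) in each library (horizontal axis). Mafa takes 6.25 to 6.48% of the sum in S487A and 20.02 to 21.41% in S487D.

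The members' median spread was lower in S487A than in S487D, a difference that was not tested. The coefficient of variation over 3 libraries ran from 0.642 to 5.27% in S487A (median 1.97%) and from 2.97 to 14.3% in S487D (median 6.87%). Over 9519 tested genes with a mean of at least 4 RPKM, the median was 4.81% in S487A and 4.57% in S487D. In S487A, 7 of 8 members varied by less than counting alone gives (Isl1 by 0.642% where counting gives 3.47%), so the low spread there is not read as a property of the members. In S487D all 8 varied by more than counting gives, Isl1 by 11.8% against 4.24% and Nkx2-2 by 14.3% against 6.0%. S487D replicate 2 held the lowest S487D value of 7 of the 8 members, Nkx6-1 being the exception, and of 46.3% of all tested genes. This library also had the highest share of ribosomal RNA (4.50%), whose part in these values was not tested. Without it the calls of all members but Neurod1 remained.

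The chromosome neighbours of 7 members had medians near 0, and those of Nkx6-1 moved opposite to it. Of the 40 tested genes nearest to Nkx6-1, 20 on each side, 33 rose and 3 fell, with a median log2 change of 0.66, and each of them had a higher log2 change than Nkx6-1. The nearest tested gene on its left, Cds1, had a log2 change of -0.36 (adjusted p = 8.63e-04) and the nearest on its right, Fam175a, 0.48 (adjusted p = 0.00356). For Mafa, 14 of 40 neighbours rose and 7 fell, the median was 0.06, and none reached the log2 change of Mafa (highest 0.88). Around Isl1, 10 rose and 8 fell (median -0.01), and 2 of 40 had a lower log2 change than Isl1. Around Nkx2-2, 6 rose and 11 fell (median -0.06), and 1 of 40 had a log2 change above that of Nkx2-2. The medians were 0.02 around Pdx1, -0.04 around Neurod1, -0.07 around Pax6 and -0.01 over the 26 genes near Mnx1, which lies close to the end of its chromosome.

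**Figure D4:**
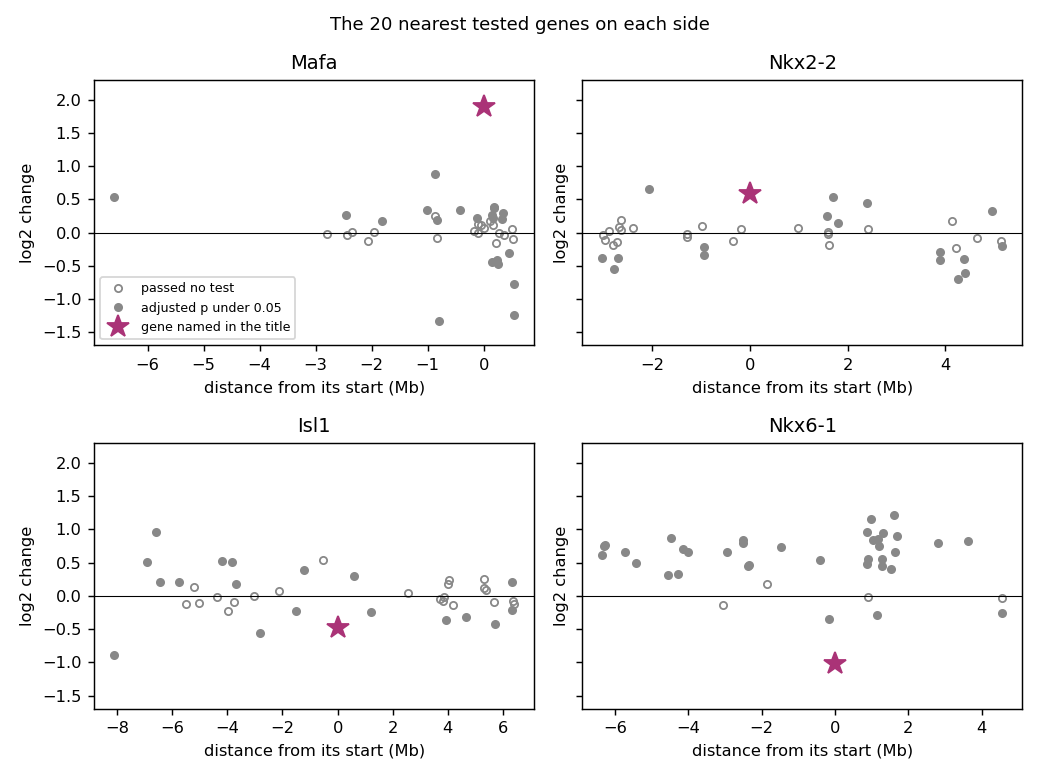
Log2 change (vertical axes) of the 20 nearest tested genes on each side of 4 members against distance from the member's start in Mb (horizontal axes), filled where the adjusted p was under 0.05. Of the genes around Nkx6-1, 33 of 40 lie above 0 and are filled, while Nkx6-1 itself (star) lies at -1.03.

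The tested gene whose profile over the 6 libraries was closest to that of Mafa was Ins1, the insulin gene with the highest RPKM. Likeness was the Euclidean distance between log2(RPKM + 1) profiles, each gene minus its own mean, over all tested genes, and the distance to Ins1 was 0.203. The next were Sytl4, encoding a docking protein of insulin granules (0.214), Arhgap36 (0.215), Ins2 (0.337) and LOC366199 (0.362). LOC366199, at a mean of 0.0191 RPKM in S487A and 2.11 in S487D, passed the filter only through S487D. The mean level of Ins1 was 4683 ± 292 RPKM under S487A and 16700 ± 551 under S487D, that of Ins2 108 ± 1.4 and 341 ± 15.8. Arhgap36 rose from 16.3 ± 1.1 to 57.9 ± 1.6 RPKM (log2 change 1.77). Reads of Ins1 and Ins2, which are near-identical copies, may be split unevenly between them. The genes closest to Nkx6-1 were Tiparp (0.141), the prion protein gene Prnp (0.142), Synpr (0.145), Pdlim1 (0.146) and P4ha1 (0.149), each on another chromosome than Nkx6-1. With 3 libraries in each of 2 groups, likeness mostly reflects a similar difference between groups.

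Beta cell genes that these factors are known to bind or activate split in both directions. Of 28 names, 27 gave a row and 25 were tested, of which 10 rose, 11 fell and 4 did neither. Thus 84.0% were called, against 44.4% of all tested genes. Their median log2 change was -0.07, and that of all tested genes -0.01. Besides Ins1 and Ins2, the rises with the smallest p were Slc30a8, the zinc transporter of insulin granules, from 19.0 ± 1.6 to 105 ± 6.3 RPKM, and Sytl4, from 17.2 ± 1.3 to 66.7 ± 1.7. The falls with the smallest p were Scg5, a chaperone of the convertase Pcsk2, from 600 ± 18 to 377 ± 13.3 RPKM, Nnat, an imprinted gene of hormone processing, from 532 ± 19.5 to 361 ± 6.6, and Glp1r, the GLP-1 receptor gene, from 44.03 ± 1.40 to 26.8 ± 1.6.

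Among other transcription factors of islet and pancreas, more fell than rose. Of 30 listed, 16 were tested, of which 3 rose, 10 fell and 3 did neither, with a median log2 change of -0.30. Thus 81.25% were called, where 44.4% of all tested genes were called, 20.1% higher and 24.3% lower. The remaining 14 reached at most 0.693 RPKM, among them Neurog3, Ptf1a and Pou3f4, which were at 0 in every library. Foxa3, a forkhead factor, rose from 11.6 ± 0.57 to 17.8 ± 1.9 RPKM and Sox4, a factor of endocrine differentiation, from 39.2 ± 0.67 to 47.2 ± 1.4. Rfx6, needed for islet development, fell from 58.5 ± 2.4 to 26.7 ± 1.3 RPKM. Its relative Rfx3 went from 13.5 ± 0.33 down to 7.59 ± 0.12 RPKM. The Rfx3 row overlaps another transcript, whose reads cannot be told apart where the strand is not marked.

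Genes of proteins that pair with the members went both ways. Of 40 listed partners and coregulators, 35 were tested, of which 9 rose, 9 fell and 17 did neither, so that 51.4% were called where 44.4% of all tested genes were. Their median log2 change was 0.02. Without S487D replicate 1 the number of rises was 4, and after median centring the number of falls was 5. The genes of Id proteins, which bind E proteins and keep them from pairing with factors such as Neurod1, were higher in all 4 cases. Id4 rose from 22.5 ± 2.2 to 35.6 ± 2.2 RPKM, Id3 from 147 ± 3.0 to 179 ± 3.8 and Id1 from 47.9 ± 3.1 to 62.7 ± 0.75. Id2 rose from 1.90 ± 0.89 to 3.89 ± 1.2 RPKM (adjusted p = 0.0279). The E protein gene Tcf3 rose from 36.05 ± 0.34 to 40.4 ± 1.5 RPKM, a log2 change of 0.16 (adjusted p = 0.0133). Of the other E protein genes listed, Tcf12 was not called (log2 change 0.09, adjusted p = 0.375, groups overlapping). Tcf4 was at 0 in every library. Ldb1, the adaptor of Isl1, fell from 169.5 ± 8.2 to 153 ± 6.4, a log2 change of -0.14 (adjusted p = 0.0357), although its groups overlapped. Smarca2, an ATPase of SWI/SNF complexes, fell from 31.7 ± 0.30 to 17.6 ± 0.38 RPKM, the corepressor gene Tle3 from 17.5 ± 0.87 to 8.73 ± 0.18 and the deacetylase gene Hdac2 from 118 ± 5.5 to 81.2 ± 1.3. The rows of Smarca2 and Tle3 overlap other transcripts. Id2, Tcf3, Tcf12, Tcf4 and Ldb1 were picked after their values were seen.

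Hormone and lineage genes of other islet cells were mostly silent, with clear exceptions. Of 15 listed, 6 were tested, of which 3 rose, 1 fell and 2 passed no test. Thus 66.7% were called, against 44.4% of all tested genes. The other 9 reached at most 0.249 RPKM, with Sst and Ppy at 0 in every library. Gcg, the proglucagon gene, rose from 96.0 ± 6.6 to 819 ± 41 RPKM, and Slc7a2, an amino acid transporter gene of alpha cells, from 4.47 ± 0.27 to 15 ± 1.3. Gast, the gastrin gene, fell from 102 ± 5.0 to 8.14 ± 0.56 RPKM.

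**Figure D5:**
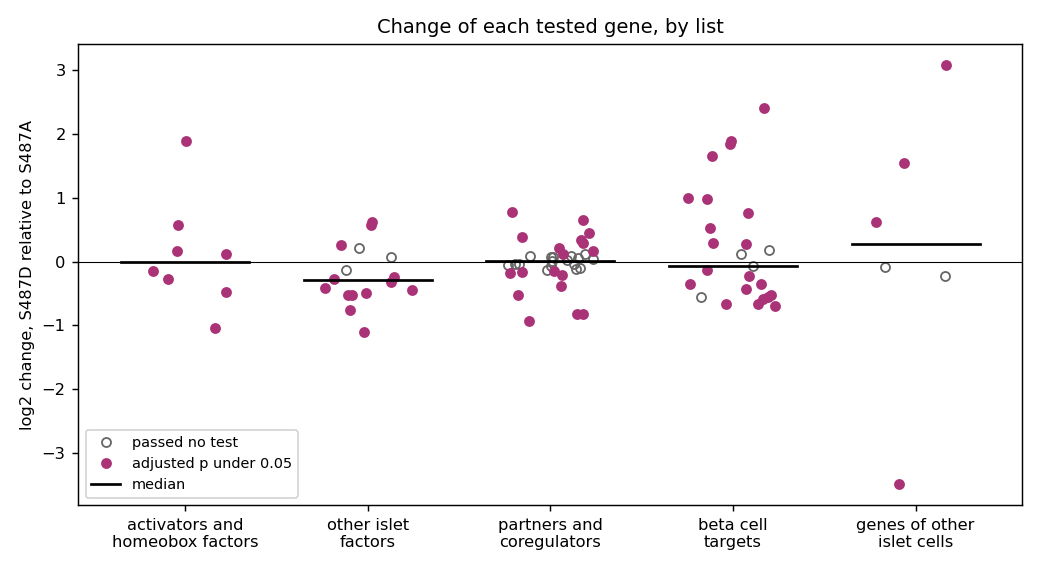
Log2 change of every tested gene (vertical axis) in the 5 lists (horizontal axis), filled where the adjusted p was under 0.05, with each list's median as a line. Medians are -0.01 for the activators and homeobox factors, -0.30 for other islet factors, 0.02 for partners and coregulators, -0.07 for beta cell targets and 0.27 for genes of other islet cells.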

How the data were processed

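RNA from 6 INS-1 samples was extracted with Trizol and its mRNA sequenced with a TruSeq RNA kit, per the labels' protocols; that kit does not mark strand. Per the submitters' processing notes, reads went through bcl2fastq 2.17 and cutadapt, and TopHat2 2.0.13 with the rn6 (Rnor_6.0) build. For the counter, annotation and filters, nothing is given in the sources used here. The authors deposited RPKM per gene and library with position and gene length, per the file headers.

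RPKM times length gave whole reads (to a tolerance of 0.05 reads, 100% of low values), so the authors scaled RPKM to reads assigned to listed genes. Groups and replicate numbers came from sample titles. The 12527 genes that reached 1 RPKM in 3 or more libraries were compared on log2(RPKM + 1) in limma 3.58.1 under R 4.3.3 (two-sided, intensity trend, group as sole term, Benjamini-Hochberg adjusted). A fold is 2 to the power of the log2 change. The fit was tested on simulated reads. In that simulation it recovered 14% of 1.2-fold, 80% of 1.5-fold, 88% of 2-fold and 100% of 4-fold changes. Few genes were changed there, with 154 calls among 12478 tested genes, against 5564 among 12527 in the real libraries. The adjusted p depends on how many genes change. The recovered shares therefore do not give the share of real changes that the fit found. Of its 154 calls there, 13 were false. Replicates were not duplicates: their counts differed beyond sampling noise (median chi-square over its expectation 1.36 to 1.88). Tables and figures were made in Python 3.11.15 with pandas 2.3.3.

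The members and lists were chosen with earlier results of these data known. Named genes were the members, Men1, Ins1, Ins2, up to 3 called genes per direction and list with the smallest p, markers at 10 RPKM or more, and the 5 genes most like Mafa and the most lowered member. A few genes under this rule are not reported here. Others are said to be picked after their values were seen, except Iapp, Slc2a2 and Pcsk2, genes at 0, and neighbours. List names were matched by symbol, older symbol or gene ID in a RefSeq table of GRCr8. Alternatives were pseudocounts of 0.1 and 0.01, no filter, a filter at 5 RPKM, scaling by quantile normalization, by median centring or without the 10 most read genes, no trend, a replicate block, voom on recovered reads and each library left out. The planned comparison of homeodomain sequences was not made, because protein sequences were not used here.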

Additional observations from a re-analysis of the deposited data

How the results depend on the processing

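Each of the 8 members kept its direction in 16 alternatives, and 6 kept their call; Pdx1 and Neurod1 did not, as given above. Between 3 and 4 members were higher and between 3 and 4 lower, both with a library left out and in the other alternatives. Genes called numbered 5564, against 4603 to 4851 with a library left out and 4578 to 5965 otherwise. The share of calls that were higher was 45.3%, 55.4% after quantile normalization and 58.9% after median centring. Scaling moved the median of all genes by at most 0.058 on the log2 scale.

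Partners and coregulators called higher numbered 4 to 9 with a library left out, and those called lower numbered 5 after median centring. Genes of other islet cells called lower numbered 2 without a filter and after quantile normalization. The median log2 change of 20 neighbours (10 each side) was -0.0354 around Pdx1 and 0.0427 around Nkx2-2, opposite in sign to that of 40. The cause was not tested. Same-numbered libraries of the groups had r of 0.0035, -0.060 and 0.010 between their deviations across genes. Differently numbered pairs ran from -0.0997 to 0.101. The labels do not say whether same-numbered libraries were prepared together, and these values cannot decide it. With a replicate block 3 members were called higher and 4 lower, Pdx1 being lost (log2 change 0.12, adjusted p = 0.0577). Depth limits Nkx6-1 and Nkx2-2 most, with 121 to 353 reads per library.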

Other observations

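Among the relatives of the members, picked after their values were seen, most families had 1 clearly read gene. Nkx6-2, Isl2 and Nkx2-5 were at 0 in every library, and Pax4, Nkx6-3, Nkx2-4 and Insm2 stayed under 0.1 RPKM on average in both groups. Neurod2, the paralog of Neurod1, stood at 7.04 ± 0.45 RPKM under S487A and 8.85 ± 1.5 under S487D (log2 change 0.28, limma adjusted p = 0.0499), near the threshold. Pax5, a relative of Pax6, stood at 3.48 ± 0.96 and 2.10 ± 0.87 RPKM (log2 change -0.55, adjusted p = 0.0484), from 15 to 57 reads per library. The groups overlapped for Neurod2 and for Pax5.

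The Maf family was an exception. Besides Mafa, the small Maf gene Mafk, whose protein lacks an activation domain, rose from 11.96 ± 0.30 to 14.6 ± 0.24 RPKM, a log2 change of 0.27 (adjusted p = 0.00191). Maff fell from 8.40 ± 0.45 to 6.69 ± 0.67 RPKM, a log2 change of -0.29 (adjusted p = 0.0128), and Mafg stood at 19.6 ± 0.69 and 20.7 ± 1.2 (log2 change 0.07, adjusted p = 0.313). Maf and Nrl stayed under 0.1 RPKM. The Mafk row overlaps another transcript.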
